A study of Mus musculus with 36 samples.

Results

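The response to glucokinase (GK) overexpression was measured in mouse hepatocytes that expressed human GKRP-446L (hL), the glucokinase regulatory protein with leucine in place of the proline of GKRP-446P. It was taken as 3 hepatocyte cultures with the hL and GK adenoviral vectors (labelled Ad-hL + GK, here GK+hL) against 3 cultures with the hL vector and endogenous GK (Ad-hL-(No GK), here hL). These 6 libraries, of 36 in the series, were chosen by their labels and paired by mouse. The hepatocytes were primary isolates of 3 female mice of the P446L strain, aged 14 wk. The labels give the genotype as Gckr-446L for mice 1 and 2 and Gckr-446P/L for mouse 3. By contrast, the study's methods describe the P446L mice used for hepatocytes as homozygous for leucine. Its abstract calls the transfected hepatocytes GKRP-deficient. Each mouse gave 1 culture of hL and 1 of GK+hL. All cultures were kept overnight with 10 nM insulin and 10 nM dexamethasone, cultured for 24 h, and incubated for 4 h with 25 mM glucose before RNA was extracted. The GK vector was used at a titre set to raise GK by 2 to 4 fold. No empty vector was used, so GK+hL cultures received 2 vectors and hL cultures 1, and the effects of GK and of the added virus cannot be told apart. Hepatocytes without any vector (untreated) and with GK alone (GK), with 6 cultures each, were used for comparison. So was the human GKRP-446P pair (hP and GK+hP, 3 cultures each), with the hP vector at the same titre as hL. All came from the same 3 mice. In what follows, without GKRP stands for without a GKRP vector, because these cells held mouse Gckr mRNA of their own.

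Glucokinase phosphorylates glucose to glucose 6-phosphate, the first step of glucose use in hepatocytes. GKRP binds GK and holds it inactive in the nucleus at low glucose, and releases it to the cytoplasm when glucose or fructose rises. Products of glucose phosphorylation activate ChREBP (encoded by Mlxipl), a transcription factor that binds the carbohydrate response elements of genes of glycolysis, fructose use and lipogenesis. The leucine variant of human GKRP is a common allele associated with blood lipids and glucose.

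The 6 libraries held between 3930207 and 7105999 reads. Expression is given as CPM, the reads of a gene scaled to a fixed library size after TMM normalization. Hepatocyte markers were abundant: the summed level of 6 of them (Alb, Apoa1, Ttr, Serpina1c, Cps1 and Tat) was between 68500 and 121000 CPM in hL and between 90300 and 129000 CPM in GK+hL. The 7 macrophage markers summed to between 180 and 273 CPM in hL and between 177 and 282 CPM in GK+hL, and the 6 endothelial markers to between 71.5 and 107 CPM and between 67.8 and 109 CPM. Cholangiocyte markers, led by Spp1, were at 165 and 172 CPM in hL and GK+hL of mouse 1 and at 34 CPM or less in mice 2 and 3. Stellate cell and fibroblast markers, led by Reln, ranged from 30.2 to 123 CPM in hL and from 28.2 to 155 CPM in GK+hL. Lymphocyte markers stayed under 6 CPM, and of the 3 neutrophil markers all were at 0 in GK+hL and 2 were at 0 in hL. Mitochondrial transcripts took between 6.17% and 7.79% of the reads in hL and between 6.37% and 7.58% in GK+hL.

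Human GCKR is not among the mouse transcripts that were quantified, so the hL vector itself left no measured mRNA. Mouse Gckr, on chromosome 5, was at 47.6, 99.7 and 73.8 CPM in hL and at 46.2, 69.3 and 70.1 CPM in GK+hL. The groups overlapped, with a log2 fold change of -0.26 (SE 0.56). Untreated cultures, which received no GKRP vector, held mouse Gckr at 39.2, 61.2 and 70.7 CPM in mice 1, 2 and 3.

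In hepatocytes with hL, GK overexpression left no gene past the threshold that the study used, an FDR of 0.05 together with a change of 30% (here a fold of 1.3 or more upward, or of 0.7 or less downward). Of 12176 genes, edgeR called 0 higher and 0 lower (0% each), while 377 genes were higher (3.1%) and 381 lower (3.13%) at an unadjusted p under 0.05, which became 143 and 120 without the mouse term. DESeq2 on the same samples called 15 higher and 8 lower. Txnip was 1 of the 15, and 13 of them were pseudogenes by name or annotation, predicted genes (Gm symbols) or the major urinary protein gene Mup8; pseudogenes and the Mup family can share reads with near-identical copies. The same edgeR test of GK against untreated called 42 genes higher (0.345%) and 2 lower (0.0164%), with 404 (3.32%) and 272 (2.23%) at an unadjusted p under 0.05; the 42 became 1 without mouse 2, 8 without mouse 3 and 1 without the mouse term. The test of GK+hP against hP called 0 and 0, with 147 (1.21%) and 228 (1.87%) at an unadjusted p under 0.05. Untreated and GK held 2 summed cultures per mouse, and the groups with hL or hP held 1. The numbers of calls therefore rest on unequal depth and unequal numbers of cultures. By direction alone, 1579 genes (13%) were higher and 1723 (14.2%) lower with GK in 3 of 3 mice of the hL comparison, and the 3 GK+hL values were all above the 3 hL values in 343 genes (2.82%) and all below in 394 (3.24%).

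**Figure D1:**
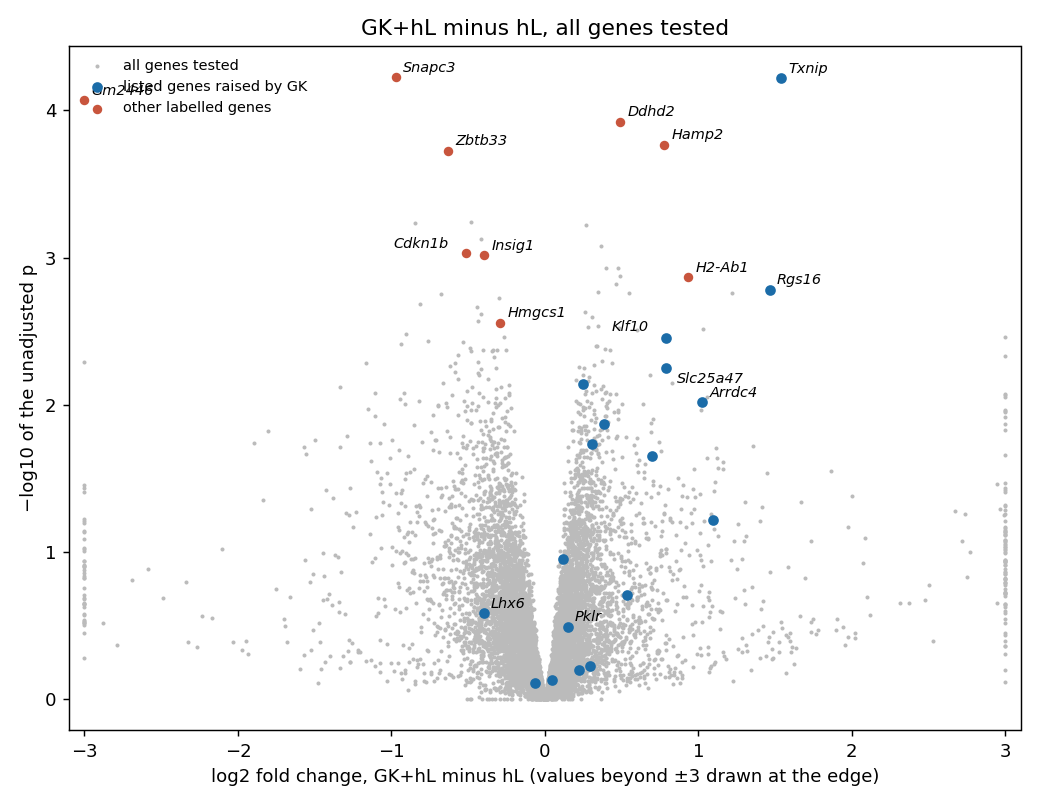
Each point is 1 of 12168 of the tested genes, with the log2 fold change of GK+hL minus hL on the x axis and −log10 of the unadjusted p of edgeR's test on the y axis; the 130 genes beyond ±3 are drawn at the edge. Txnip (1.54) and Ddhd2 (0.49) are labelled on the right, Snapc3 (-0.97) and Gm2446 on the left, and no gene passed the adjusted threshold.

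A list of 20 genes raised by GK was put together from genes that the study, or an earlier analysis of these libraries, names as such; it is not the study's own set, of which it holds a part, and not all 20 are named as lowered by GKRP. Most were at higher levels in GK+hL than in hL. The genes were chosen on libraries of this series, with hL among the controls of GK, so neither the direction nor the smaller size of their response with hL is independent evidence, and both are given as a description. Of the 20 genes, 12 were higher with GK in 3 of 3 mice and 1 was lower in 3 of 3, and 11 were higher at an unadjusted p under 0.05, where 3.1% of all genes were. Their median log2 fold change was 0.46 (0.28, 0.50 and 0.54 in mice 1, 2 and 3), beside -0.008 for all genes. Without a GKRP vector their median was 1.42, and with hP it was 0.25. Slc17a4, a sodium and phosphate transporter family member that the study also names and the list lacks, was at 5.62, 4.40 and 1.23 CPM in hL and 6.38, 3.055 and 3.37 CPM in GK+hL (log2 fold change 0.31, SE 0.42), higher in 2 of 3 mice.

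Txnip, an inhibitor of thioredoxin and of glucose uptake and a target of ChREBP, had the largest log2 fold change of the 20. It was at 13.1, 17.2 and 21.5 CPM in hL and at 30.04, 58.3 and 66.1 CPM in GK+hL. All 3 GK+hL cultures were above the 3 hL cultures. The log2 fold change was 1.54 (SE 0.31, a 2.90-fold difference; adjusted p = 0.246 by edgeR). The GK+hL level was above that of untreated cultures in mice 1 and 2 and under it in mouse 3 (16.6, 44.8 and 123 CPM), and under that of GK alone in every mouse (98.0, 274 and 344 CPM). Rgs16, a regulator of G protein signalling and a ChREBP target, was at 3.98, 6.05 and 4.09 CPM in hL and at 11.6, 19.6 and 8.63 CPM in GK+hL. The groups did not overlap, and the log2 fold change was 1.47 (SE 0.41, adjusted p = 0.802 by edgeR). Arrdc4, an arrestin relative of Txnip, was at 3.05, 3.48 and 4.36 CPM in hL and within a narrow range of 7.32, 7.13 and 7.58 CPM in GK+hL, without overlap. Its log2 fold change was 1.03 (SE 0.36), close to the 1.29 (SE 0.31) measured without GKRP. Klf10, a transcription factor induced by glucose, differed most in mouse 2: it was at 15.2, 8.06 and 15.8 CPM in hL and at 17.1, 23.2 and 26.1 CPM in GK+hL, with log2 fold changes of 0.163, 1.495 and 0.715 in mice 1, 2 and 3. The log2 fold change of Klf10 over the 3 mice was 0.79 (SE 0.24), and 0.46 without mouse 2. Untreated cultures held Rgs16 at 3.46, 9.75 and 12.45 CPM, Arrdc4 at 5.84, 4.50 and 10.6 CPM and Klf10 at 14.8, 15.75 and 36.1 CPM. For each of these genes GK+hL was above untreated in mice 1 and 2 and under it in mouse 3.

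**Figure D2:**
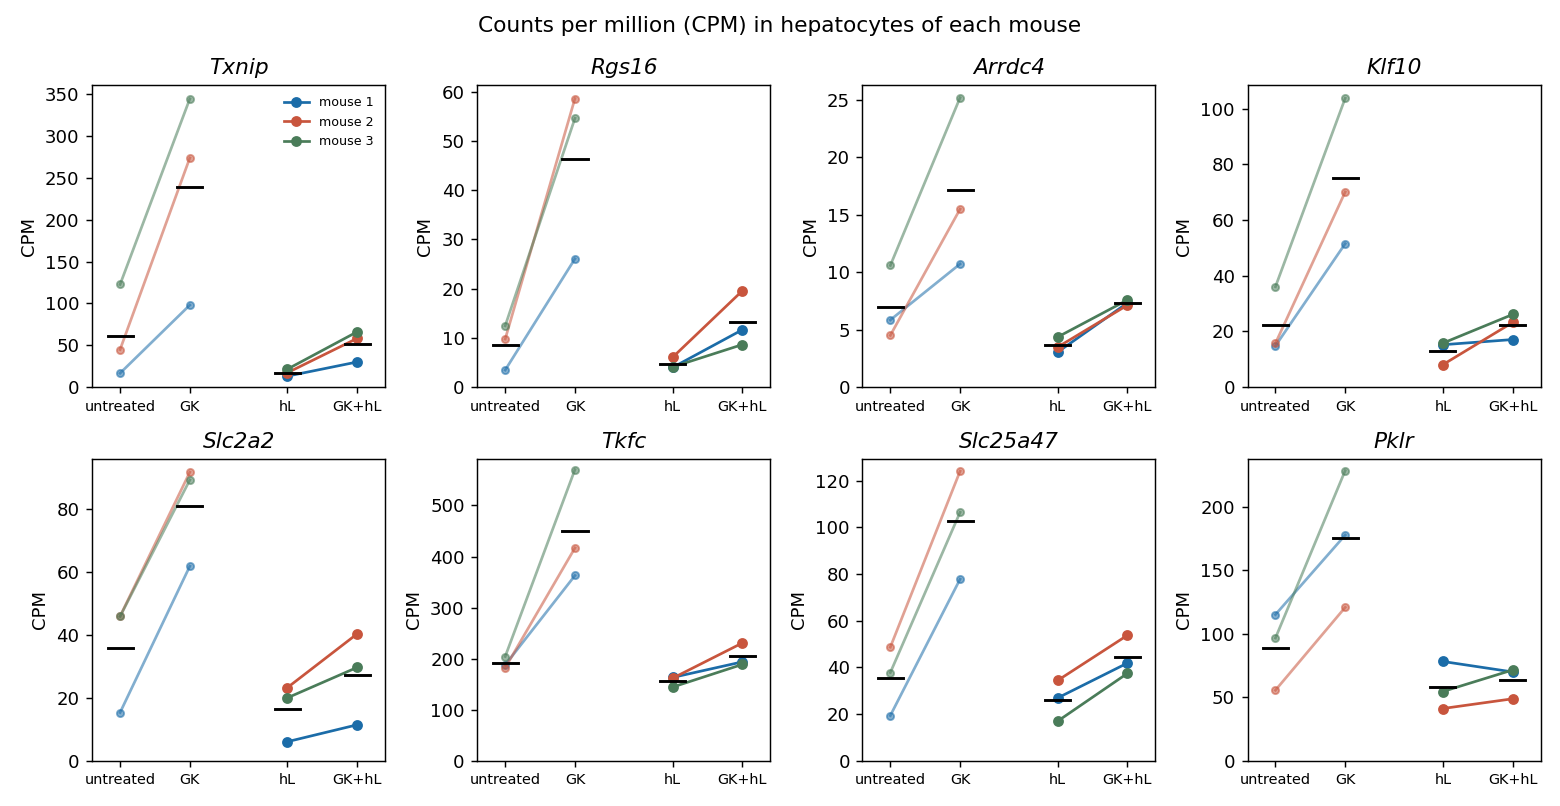
CPM of 8 genes (y axis, from 0) in each mouse, with lines joining the culture without and the culture with the GK vector, and black bars for the means of 3 mice. Each of the 8 genes was lower in GK+hL than in GK alone in every mouse; Txnip was between 30.04 and 66.1 CPM in GK+hL and between 98.0 and 344 CPM in GK alone.

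Genes of fructose use and glucose transport were among the 20. Slc2a2, which encodes the glucose transporter GLUT2, was at 6.09, 23.3 and 20.02 CPM in hL and 11.5, 40.3 and 29.7 CPM in GK+hL, with a log2 fold change of 0.70 (SE 0.28). Its GK+hL level was under that of untreated cultures in each mouse (15.3, 45.9 and 45.8 CPM). Tkfc, the triokinase that phosphorylates glyceraldehyde, was at 163, 162 and 144 CPM in hL and at 194, 231 and 189 CPM in GK+hL, without overlap (log2 fold change 0.39, SE 0.14). Untreated cultures held Tkfc at 188, 182 and 204 CPM, above the GK+hL level in mouse 3. Khk, ketohexokinase, which is not one of the 20, was at 72.4, 169 and 89.1 CPM in hL and 97.3, 173 and 118 CPM in GK+hL. Of 8 tested genes of fructose and sorbitol metabolism, 5 were higher with GK in 3 of 3 mice, among them Tkfc, Khk and Sord, and 2 were lower, against 13% and 14.2% of all genes, with a median log2 fold change of 0.25, against 0.48 without GKRP; none passed the adjusted threshold.

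Slc25a47, a mitochondrial carrier of hepatocytes, was at 26.9, 34.4 and 17.0 CPM in hL and 41.9, 53.8 and 37.5 CPM in GK+hL, with no overlap and a log2 fold change of 0.79 (SE 0.26). Untreated cultures held Slc25a47 at 19.4, 48.7 and 37.8 CPM. Slc25a44, a mitochondrial carrier of branched-chain amino acids, was lower with GK in mouse 1 (48.5 to 44.1 CPM) and higher in mice 2 (47.3 to 66.8 CPM) and 3 (41.9 to 61.0 CPM). Angptl8, an inhibitor of lipoprotein lipase activity, was at 8.44, 14.8 and 8.04 CPM in hL and 14.8, 18.7 and 11.8 CPM in GK+hL (0.53, SE 0.40). Dusp1, a phosphatase of MAP kinases, differed little but without overlap, at 122, 130 and 132 CPM in hL and 156, 139 and 162 CPM in GK+hL. G6pc, the catalytic subunit of glucose 6-phosphatase, was near the limit of detection, with 0, 3.48 and 1.498 CPM in hL and 1.88, 4.89 and 2.32 CPM in GK+hL.

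A further 7 genes of the 20 had log2 fold changes of 0.30 or less with hL. Pklr, the liver pyruvate kinase and a classical ChREBP target, was at 78.3, 41.2 and 54.6 CPM in hL and at 70.0, 48.9 and 71.6 CPM in GK+hL. It was lower with GK in mouse 1 and higher in mice 2 and 3, with a log2 fold change of 0.15 (SE 0.15), against 1.00 (SE 0.15) without GKRP. Rnf144b (0.05, SE 0.15), Slc16a1, the lactate and pyruvate transporter (0.12, SE 0.07), Zfp189 (-0.06, SE 0.23), Hcn3 (0.22, SE 0.45) and Slc25a29 (0.30, SE 0.54) had log2 fold changes within about 2 SE of 0. Lhx6 was the gene lower in 3 of 3 mice, at 2.11, 3.48 and 3.27 CPM in hL and 1.88, 2.65 and 2.11 CPM in GK+hL, and its log2 fold change of -0.40 (SE 0.34) lay beside 1.02 without GKRP.

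**Figure D3:**
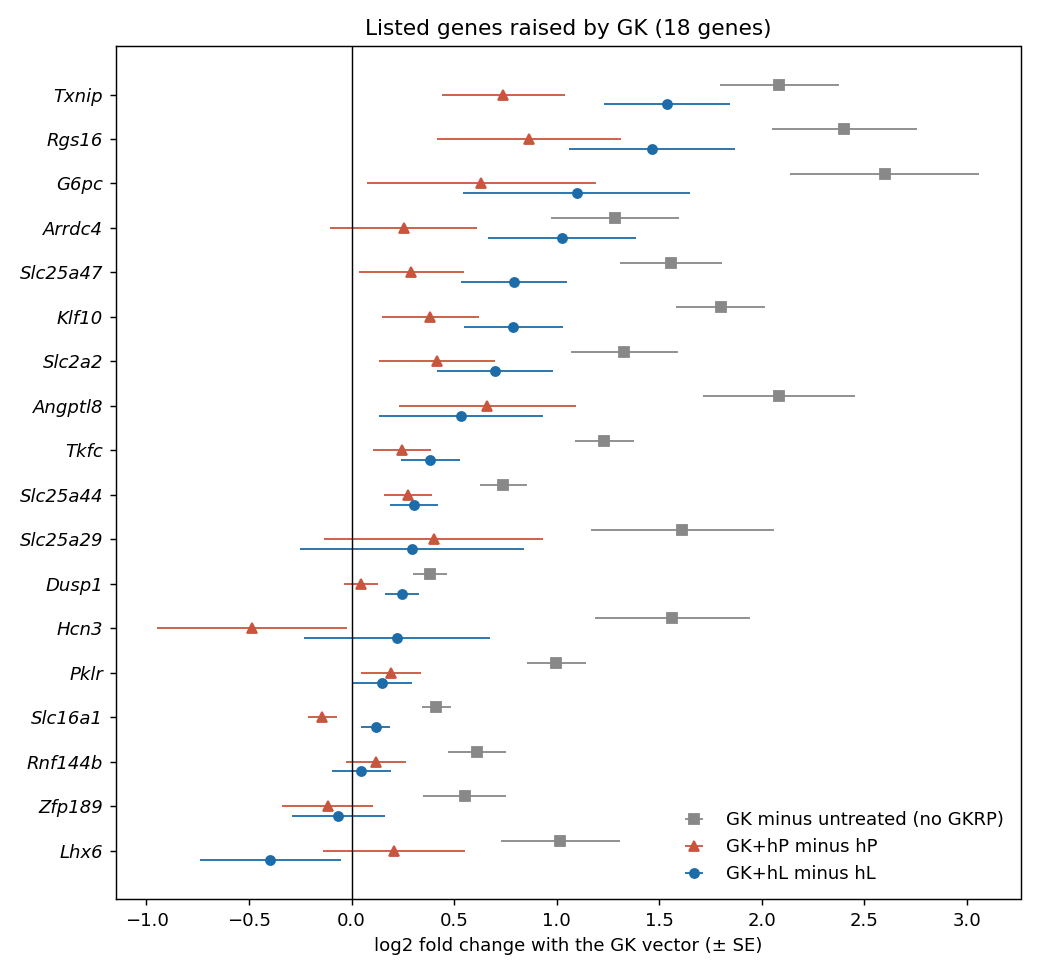
Log2 fold change with the GK vector (x axis, points with SE bars) for 18 of the 20 listed genes raised by GK. Cultures had hL (circles), hP (triangles) or no GKRP vector (squares). Txnip (1.54), Rgs16 (1.47) and G6pc (1.10) lead with hL and Lhx6 (-0.40) is lowest, and each gene's value with hL is under its value without GKRP, as the choice of the genes favours.

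Because the promoters of ChREBP targets can hold carbohydrate response elements, the 250 bases before the start of each gene's canonical transcript were searched in GRCm39. The motifs were CANGNG followed after any 5 bases by CNCNTG, a spaced pair of E-box-like sites, and the E-box CACGTG; both read the same on either strand, and a match is a description and not a binding site. The spaced motif was in 50 of 11180 promoters of tested protein-coding genes (0.447%) and in 1 of the 20, Pklr; CACGTG was in 894 (8.0%) and in 3 of the 20, Arrdc4, Dusp1 and Slc16a1. The Txnip window, of the gene with the largest difference, held neither set of letters. The search did not cover CANGNG repeated in the same direction after 5 bases. The Txnip window holds such a repeat, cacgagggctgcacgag, so its lack of a match applies to the searched forms only. Shown are Pklr (chr3:89043629-89043878, plus strand, spaced motif in capitals, first base 119 bases before the start), Arrdc4 (chr7:68399000-68399249, minus strand, CACGTG in capitals, 180 bases before the start) and Txnip (chr3:96465017-96465266, plus strand, no match), which have log2 fold changes of 0.15, 1.03 and 1.54.
Pklr: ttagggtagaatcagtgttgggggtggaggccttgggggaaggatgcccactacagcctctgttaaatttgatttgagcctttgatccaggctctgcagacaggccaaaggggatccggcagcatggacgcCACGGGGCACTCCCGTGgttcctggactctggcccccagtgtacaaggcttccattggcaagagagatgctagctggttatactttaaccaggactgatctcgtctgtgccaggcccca
Arrdc4: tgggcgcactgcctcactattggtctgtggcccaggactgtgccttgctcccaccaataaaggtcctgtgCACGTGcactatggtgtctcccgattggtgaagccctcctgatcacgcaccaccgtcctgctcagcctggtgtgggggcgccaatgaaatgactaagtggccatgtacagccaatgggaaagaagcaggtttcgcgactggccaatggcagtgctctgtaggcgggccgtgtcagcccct
Txnip: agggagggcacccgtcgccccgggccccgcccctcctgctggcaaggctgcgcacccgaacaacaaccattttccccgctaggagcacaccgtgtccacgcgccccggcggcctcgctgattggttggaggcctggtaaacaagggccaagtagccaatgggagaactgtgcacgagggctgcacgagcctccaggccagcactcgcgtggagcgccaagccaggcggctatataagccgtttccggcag

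A broader list of 33 ChREBP targets, of which 31 were tested and 11 are among the 20, had a median log2 fold change of 0.15 with hL and 0.74 without GKRP. In it 17 genes were higher with GK in 3 of 3 mice and 0 lower (13% and 14.2% of all genes), and 9 were higher at an unadjusted p under 0.05 (3.1% of all genes). Outside the list of 20 the other 20 tested targets had a median of 0.07 with hL and 0.32 without GKRP; 16 had a log2 fold change above 0 with hL, where 5871 of all 12176 genes had, and 7 were higher and 0 lower in 3 of 3 mice, against 13% and 14.2% of all genes. Gpd1, glycerol 3-phosphate dehydrogenase, was the 1 of these at an unadjusted p under 0.05 (129, 56.8 and 69.5 CPM in hL, 142, 78.8 and 92.0 CPM in GK+hL; log2 fold change 0.34, SE 0.14).

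Genes of fatty acid synthesis differed between mice. Acly, which makes cytosolic acetyl-CoA, was at 197, 247 and 263 CPM in hL and at 191, 322 and 345 CPM in GK+hL. Acaca, acetyl-CoA carboxylase, was at 77.8, 76.0 and 90.2 CPM in hL and at 58.0, 93.3 and 113 CPM in GK+hL, and Fasn, fatty acid synthase, at 324, 302 and 295 CPM and at 179, 279 and 360 CPM. In mouse 1 all 3 were lower with GK and in mouse 3 all 3 were higher. Mid1ip1, a partner of acetyl-CoA carboxylase, was higher in every mouse (log2 fold change 0.43, SE 0.21), as was Thrsp (0.36, SE 0.21). Over 14 lipogenesis genes the median log2 fold change was 0.08 (-0.07, 0.06 and 0.21 in mice 1, 2 and 3), and 0.30 without GKRP, and none passed the adjusted threshold. Genes of triglyceride synthesis and VLDL secretion had a median of 0.05. Apob, the structural protein of VLDL, was at -0.46 (SE 0.25), a value that came mostly from mouse 1. Its log2 fold changes were -1.136, -0.098 and -0.248 in mice 1, 2 and 3. Gpam, which starts glycerolipid synthesis, was at -0.28 (SE 0.19).

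Mlxipl itself was at 87.9, 65.8 and 56.0 CPM in hL and at 76.4, 61.5 and 60.6 CPM in GK+hL, with overlap and a log2 fold change of -0.06 (SE 0.16). Without GKRP the same gene was at 57.3, 41.8 and 34.4 CPM in untreated and 87.7, 87.6 and 104 CPM in GK cultures, a log2 fold change of 1.12 (SE 0.15, called by edgeR with an adjusted p of 0.000735). The difference between the responses with and without hL was -1.18 (SE 0.22, adjusted p = 0.101 by edgeR). Mlxipl levels in hL cultures were already above those of untreated cultures in each mouse, as were those in hP cultures (84.6, 54.2 and 51.7 CPM). Of its partners and competitors, Mlx (0.03), Mlxip (-0.01), Mxd4 (-0.05), Myc (-0.18) and Mnt (-0.38) had SEs of 0.12 to 0.23, and none was at an unadjusted p under 0.05.

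Glycolytic genes had log2 fold changes above 0 in 13 of 17 cases, where 5871 of all 12176 genes had. Of the 17, 8 were higher in 3 of 3 mice and 1 lower (13% and 14.2% of all genes), and 3 were higher at an unadjusted p under 0.05 (3.1% of all genes), with a median log2 fold change of 0.14 (0.34, 0.09 and 0.11 in mice 1, 2 and 3), against 0.33 without GKRP. Ldha, lactate dehydrogenase, was at 1069, 2192 and 1744 CPM in hL and 1478, 2335 and 1869 CPM in GK+hL (0.22, SE 0.09), and Tpi1 (0.20) was another of the 3. Among 13 glycogen genes, Phkg2, the catalytic subunit of phosphorylase kinase, was at 11.7, 11.0 and 10.4 CPM in hL and at 14.3, 16.3 and 12.4 CPM in GK+hL with no overlap (0.37, SE 0.13), and Pygl, liver glycogen phosphorylase, was at 106, 259 and 189 CPM and at 138, 291 and 213 CPM (0.24, SE 0.09). The glycogen list had a median of 0.09, with 3 genes higher and 3 lower in 3 of 3 mice (13% and 14.2% of all genes). The pentose phosphate genes (8 tested, median 0.07), those of gluconeogenesis (10 tested, median 0.005) and the mitochondrial carriers (17 tested, median 0.11) had 0 to 2 genes at an unadjusted p under 0.05, where the 2 were Slc25a47 and Slc25a44. Of the hexokinases, Hk3 was under 2 CPM in all 6 libraries.

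Genes of cholesterol synthesis had log2 fold changes below 0 in 13 of 19 cases in GK+hL against hL, where 6279 of all 12176 genes had. Of the 19, 8 were lower in 3 of 3 mice and 2 higher (14.2% and 13% of all genes). At an unadjusted p under 0.05, 2 were lower and 1 higher (3.13% and 3.1% of all genes). The median log2 fold change was -0.08, beside -0.06 without GKRP and 0.03 with hP. Hmgcs1, the HMG-CoA synthase of the pathway, was at 230, 227 and 263 CPM in hL and at 183, 186 and 219 CPM in GK+hL. The 2 groups did not overlap and the log2 fold change was -0.29 (SE 0.09, adjusted p = 0.802 by edgeR). Of 15 sterol regulators, 5 were lower in 3 of 3 mice and 1 higher (14.2% and 13% of all genes). At an unadjusted p under 0.05, 4 were lower (3.13% of all genes). Their median was -0.14, against 0.04 without GKRP. Insig1, the sterol-sensing protein that retains SCAP in the endoplasmic reticulum, was at 134, 214 and 182 CPM in hL and at 107, 159 and 134 CPM in GK+hL, lower in each mouse, with a log2 fold change of -0.40 (SE 0.10, adjusted p = 0.785 by edgeR). Its value without GKRP was -0.26. Stard4, a sterol carrier (-0.29, SE 0.12), and the bile acid receptor Nr1h4 (-0.39) were also among the 4. A short list of genes lowered by GK was gathered in the same way as that of the raised genes, and it is only a part of the genes lowered. The direction of its genes with hL is therefore not independent evidence either, and is given as a description. Of its 5 genes, 4 were lower with GK in 3 of 3 mice (14.2% of all genes); Ccdc51, with 6.80, 4.95 and 4.63 CPM in hL and 4.32, 4.28 and 3.37 CPM in GK+hL, was the one with the largest difference.

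**Figure D4:**
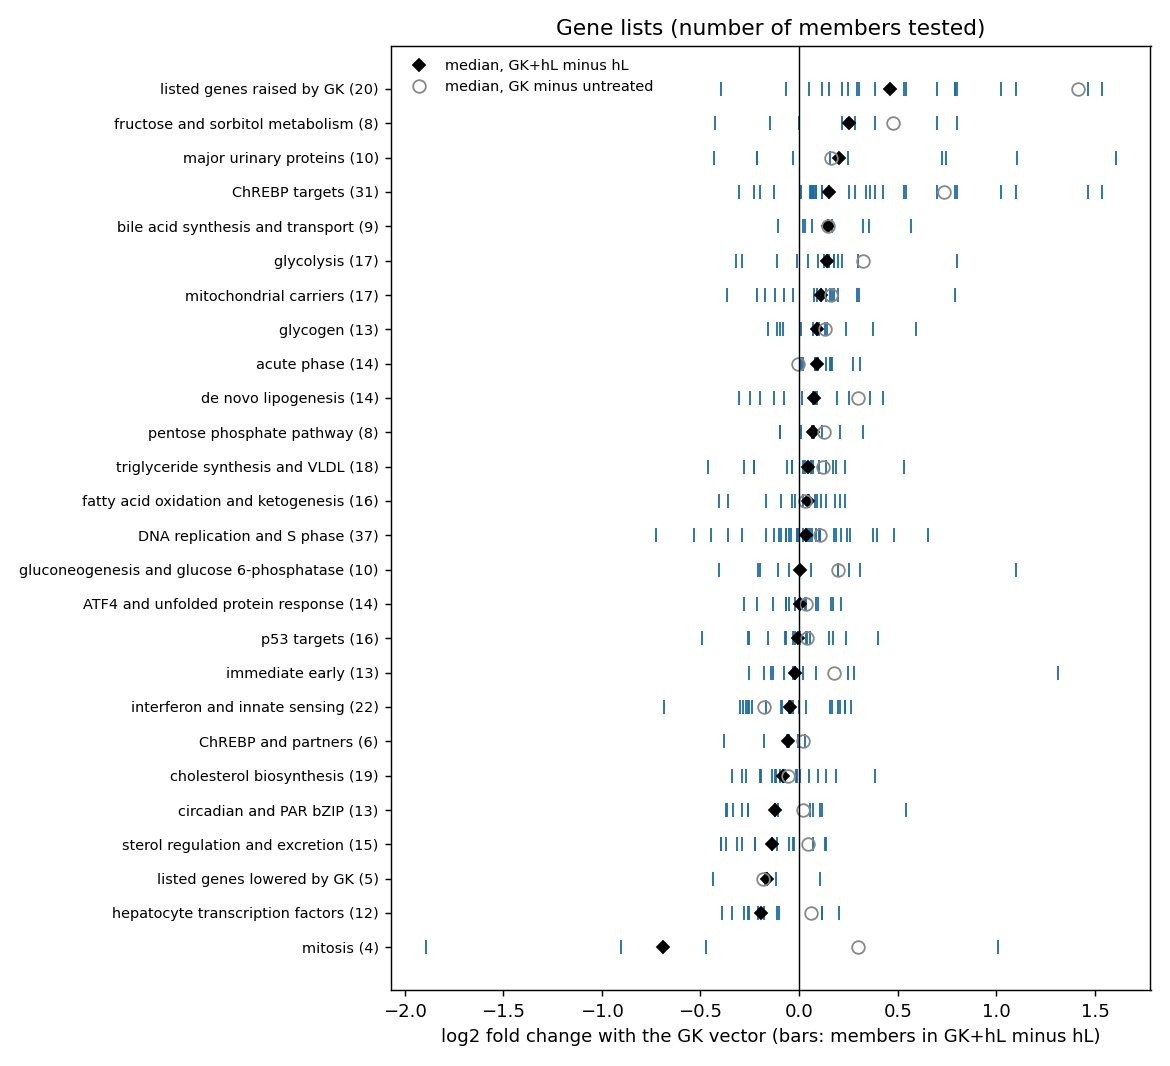
Log2 fold change of GK+hL minus hL for each tested member of 26 gene lists (blue bars), with the median of each list (diamonds) and its median in GK minus untreated (open circles). The 20 listed genes raised by GK have the highest median with hL (0.46), followed by fructose metabolism (0.25), and the mitosis list of 4 genes the lowest.

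Outside these lists, the genes of smallest p on the higher side, beside Txnip, included Ddhd2, Hamp2, Ykt6, Rell1, Zfp330, Mrpl32, Dhrs7 and H2-Ab1, and none passed the adjusted threshold. Ddhd2, a triglyceride and phospholipid lipase, was at 17.6, 22.2 and 24.9 CPM in hL and at 25.5, 31.6 and 33.3 CPM in GK+hL, above in each mouse by a similar amount (log2 fold change 0.49, SE 0.10, adjusted p = 0.291 by edgeR). It was also one of the genes called in GK against untreated, with a log2 fold change of 0.93. Hamp2, a paralogue of the iron hormone hepcidin, was at 5.16, 14.1 and 10.5 CPM and at 9.39, 19.6 and 21.3 CPM (0.78, SE 0.17). H2-Ab1, a class II histocompatibility chain of antigen-presenting cells, was at 3.75, 2.75 and 3.00 CPM in hL and at 4.69, 7.74 and 5.68 CPM in GK+hL (0.94, SE 0.25). Beside it, the macrophage markers Clec4f (9.84, 8.06 and 10.1 CPM in hL, 15.2, 10.2 and 10.9 CPM in GK+hL) and Timd4 were higher in 3 of 3 mice. They were 2 of the 7 markers, against 13% of all genes. Timd4 rested on 7, 3 and 12 reads in hL and 13, 13 and 8 in GK+hL. Of the other markers, Cd68, the most abundant, had a log2 fold change of -0.03 and Adgre1 one of -0.28 (SE 0.25). The 7 markers summed to 180, 273 and 251 CPM in hL and 177, 282 and 252 CPM in GK+hL. The part of these markers in the difference of H2-Ab1 was not tested. In these bulk cultures fewer cells of a type and less RNA per cell cannot be told apart.

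On the lower side the genes of smallest p included Snapc3, Gm2446, Zbtb33, Ppp2r3c, Zswim5, Zbtb21, Cdkn1b, Insig1 and 2610005L07Rik. Snapc3, a subunit of the complex that transcribes small nuclear RNA genes, was at 8.90, 9.53 and 8.99 CPM in hL and at 4.51, 5.50 and 4.00 CPM in GK+hL. The groups were well apart (log2 fold change -0.97, SE 0.19, adjusted p = 0.246 by edgeR), whereas the values in the other conditions ranged from 8.41 to 11.1 CPM in untreated and from 6.81 to 11.5 CPM in GK. Zbtb33, the methyl-CpG binding repressor Kaiso, was at 19.2, 21.99 and 21.0 CPM and at 10.7, 17.1 and 12.6 CPM (-0.63, SE 0.14). Cdkn1b, the cell cycle inhibitor p27, was at 18.5, 19.8 and 20.4 CPM in hL, 8.64, 17.9 and 16.0 CPM in GK+hL and 7.52, 13.0 and 9.76 CPM in untreated, so that hL without GK was the highest of the 3 conditions in each mouse. In hP cultures Cdkn1b was at 13.0, 20.02 and 16.9 CPM. Gm2446, a predicted gene with a few reads, was at 6.33, 3.66 and 3.13 CPM in hL and at 0 in the 3 GK+hL libraries, at least 7.27-fold lower when set against a floor of 3 reads per library.

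Among hepatocyte transcription factors 3 of 12 were lower with GK in 3 of 3 mice and 1 higher, against 14.2% and 13% of all genes. Their median was -0.19 (0.06 without GKRP). Nr5a2, a regulator of bile acid and lipid genes, was at 29.3, 23.1 and 25.1 CPM in hL and at 20.8, 17.7 and 22.5 CPM in GK+hL (-0.34, SE 0.14), without overlap. Prox1 was lower in mice 1 and 2 and about equal in mouse 3 (32.8, 33.5 and 21.8 CPM against 20.7, 23.2 and 22.1 CPM). The acute phase genes, which hepatocytes secrete in inflammation, all had log2 fold changes above 0, where 5871 of all 12176 genes had. Of the 14, 5 were higher in 3 of 3 mice (13% of all genes). Their median was 0.09 (0.31, 0.07 and 0.003 in mice 1, 2 and 3). Saa1 was at 3805, 5833 and 4706 CPM in hL and 5819, 6234 and 5573 CPM in GK+hL (0.31, SE 0.15). Innate sensing and interferon genes had a median of -0.05, and 6 of 22 were lower and 2 higher in 3 of 3 mice (14.2% and 13% of all genes). Ifit2 was at 4.92, 4.40 and 5.31 CPM in hL and 4.88, 1.83 and 2.95 CPM in GK+hL. Bile acid genes had a median of 0.15; the uptake transporter Slc10a1 (0.35, SE 0.16) and Slc27a5 (0.15, SE 0.07) had the smallest p, and Abcb11, the bile salt export pump, the largest log2 fold change (0.57, SE 0.545). Fatty acid oxidation had a median of 0.05, with Cpt1a, the gate of mitochondrial entry, at -0.36 (SE 0.14) and Acadm at 0.21 (SE 0.09). The circadian list (13 tested, median -0.12) held Rora at -0.36 (SE 0.17).

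Lists of cell growth and stress had medians near that of all genes, at 0.03 for 37 genes of DNA replication, -0.006 for 16 p53 targets, -0.02 for 13 immediate early genes and 0.004 for 14 genes of ATF4 and the unfolded protein response. The 2 genes of smallest p in each were Chaf1a (0.48, SE 0.23) and Rrm2 (0.39, SE 0.20) for DNA replication, Ei24 (0.24, SE 0.11) and Phlda3 (0.40, SE 0.19) for p53 targets, Dusp1 (0.25, SE 0.08) and Ier3 (0.28, SE 0.14) for immediate early genes, and Hspa5 (0.16, SE 0.09) and Hsp90b1 (0.17, SE 0.09) for the last list. The 4 tested mitosis genes were at a few CPM or less, as with Mki67 at 4.22, 0.366 and 0.409 CPM in hL and 0.939, 0.204 and 0 CPM in GK+hL. The 10 tested major urinary protein genes, whose near-identical copies share reads, had a median of 0.20, with Mup1 at 1.17, 3.30 and 1.63 CPM and at 3.00, 4.89 and 5.05 CPM.

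The GK response with hL was then compared with that without a GKRP vector by the difference between the 2 contrasts, which share no library. In 1 of the 2 GK cultures of mouse 3, mouse Gckr was at 1425 CPM, against 96.1 CPM in the other; without that culture 40 genes were called higher in GK against untreated in place of 42, and the difference of the responses still had 0 calls. Of 12176 genes, edgeR called 0 larger and 0 smaller with hL (0% each), with 340 (2.79%) and 373 (3.06%) at an unadjusted p under 0.05, and DESeq2 called 27 and 11. The smallest adjusted p by edgeR was 0.0724, for Wee1 and Gm7694. Wee1, a kinase that restrains entry into mitosis, was at 30.7, 42.0 and 32.0 CPM in hL and 29.5, 24.2 and 29.7 CPM in GK+hL, and at 9.40, 10.5 and 8.80 CPM in untreated and 14.2, 13.9 and 15.4 CPM in GK. Its log2 fold change was -0.32 with hL and 0.60 without GKRP. The difference was -0.92 (SE 0.16), and -0.87 without the high-Gckr culture. The level of Wee1 was higher with the hL vector than without, whether or not GK was added. This was not particular to hL, as Wee1 was at 29.3, 30.5 and 27.6 CPM in hP and 28.55, 31.35 and 24.75 CPM in GK+hP. Gm7694 had log2 fold changes of -0.47 and 0.92. For the 20 listed genes raised by GK the difference was below 0 in each, which their choice favours, where 53.1% of all genes had a smaller log2 fold change with hL than without; the largest were Angptl8 (-1.55, SE 0.54), G6pc (-1.503) and Lhx6 (-1.42), and the smallest Dusp1 (-0.14, SE 0.12) and Arrdc4 (-0.26, SE 0.48). The 42 genes called higher in GK against untreated, chosen on other libraries of the same mice, had a median log2 fold change of 0.31 with hL, and 27 were higher and 2 lower with GK in 3 of 3 mice of hL, where 13% and 14.2% of all genes were.

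Between the human variants no difference of the GK response was called (0 larger and 0 smaller of 12176 by edgeR, 0% each, with 248 (2.04%) and 222 (1.82%) at an unadjusted p under 0.05, and 5 and 13 by DESeq2; smallest adjusted p by edgeR 0.97). Txnip was at 15.1, 17.3 and 22.1 CPM in hP and at 13.9, 42.2 and 46.2 CPM in GK+hP, a log2 fold change of 0.74 (SE 0.30) against 1.54 with hL, and the difference was 0.80 (SE 0.43). Of the 20 genes, 10 were higher with GK in 3 of 3 mice with hP and 12 with hL, where 12.7% and 13% of all genes were. The genes of smallest p were 2610005L07Rik, Hamp2 and Gm2446; Hamp2 had a log2 fold change of -0.27 with hP and 0.78 with hL, with a difference of 1.05 (SE 0.24). A p above the threshold does not show that the 2 variants act alike.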

How the data were processed

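RNA of 36 hepatocyte cultures (10 conditions, 3 mice) was quantified by the authors with Salmon 1.4.0 on untrimmed reads against the Gencode M26 transcripts of GRCm39, per the submitters' processing notes and the study's methods. The deposited files give, per transcript, expected counts (not normalized), TPM (normalized by the authors within a library) and lengths; replicates were not pooled. Of 139225 transcripts, 137570 (98.811%) were matched to genes through Gencode M39 identifiers; the deposited expected counts of a gene's transcripts were added and rounded to whole numbers, and TPM was not used in tests. Groups came from the labels. The 2 cultures per mouse of untreated and GK were summed, which gave 30 samples. Genes were filtered with filterByExpr (12176 kept), normalized by TMM (factors 0.901 to 1.093) and tested in 1 model of 10 conditions and mouse with edgeR 4.0.16 (R 4.3.3; quasi-likelihood F test, Benjamini-Hochberg over all genes, 18 residual degrees of freedom). SE is the log2 fold change divided by the square root of F. The mouse term was used because both cultures of a pair come from the same animal. Deviations of hL and GK+hL from their group means correlated at 0.339, 0.109 and 0.23 within mice 1, 2 and 3. Between different mice the correlations ranged from -0.361 to 0.222, and the highest was hL of mouse 2 with GK+hL of mouse 3. The biological coefficient of variation was 0.231 with the term and 0.323 without. This SE rests on a spread estimated over all 30 samples after differences in level between mice were taken out. It is not the spread of the 3 responses of a single comparison. Library depth was 3930207 to 7105999 reads in the 6 libraries compared. DESeq2 1.42.0 and the other settings named in the closing section were alternatives, and the tests were checked on simulated counts. The members and gene lists were chosen with earlier results of these data known. Named genes are Gckr, the 20 listed genes raised by GK, the 10 of smallest p in each direction, the 2 of smallest p of each list and the 3 of smallest p of each difference of responses; other genes (Khk, Acly, Acaca, Fasn, Gpd1, Sord, Tpi1, Nr1h4, Abcb11, Slc17a4, Clec4f, Timd4) were chosen after their values were seen. Results of some genes that this rule would name are not reported here, nor is the check of the overexpressed gene.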

Additional observations from a re-analysis of the deposited data

How the results depend on the processing

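With hL, edgeR called 0 genes in each direction under all alternatives run with it: no mouse term, RLE normalization, no or a stricter filter on low counts, fits of the 2 or 4 conditions only, 36 cultures as samples, a transcript length offset and each mouse left out (0 to 0). DESeq2 called 15 higher and 8 lower and passed Txnip (adjusted p = 0.000132), where edgeR's alternatives gave 0.119 to 1. GK against untreated (42 and 2) gave 1 and 0 without the replicate block of mouse, 78 and 26 by DESeq2, 10 and 1 in the fit of 4 conditions, 103 and 8 with 36 cultures and 2 and 0 with the length offset; 7 lower without a filter, 1 lower with the stricter one, 1 lower without the high-Gckr culture, and 1 to 39 higher and 0 to 4 lower with a mouse left out. The difference from the response without GKRP gave 27 and 11 by DESeq2, 3 lower with 36 cultures and 0 to 1 lower with a mouse left out (the 1 without mouse 1), and that from hP 5 and 13 by DESeq2; the mouse term changed no other count past the adjusted threshold. At an unadjusted p under 0.05 the 377 higher and 381 lower genes with hL became 143 and 120 without the mouse term, 213 and 228 in the fit of 2 conditions, and 328 and 204 with the length offset. Of 881 repeats of the log2 fold changes of 74 named genes with hL, 868 kept their direction. With the length offset the sign changed for Ppp2r3c (0.381), Slc16a1 (-0.037), Hcn3 (-0.832), Rnf144b (-0.181), Mnt (0.579), Hk3 (-0.157), Pygl (-0.112), Ifit2 (0.032) and, in the difference from no GKRP, Txnip (0.198). With a mouse left out it changed for Slc25a29 (-0.243 without mouse 2, to 0.571), Hcn3 (-0.122 without mouse 3, to 0.415), Rnf144b (-0.053 without mouse 3, to 0.161), Zfp189 (0.149 without mouse 1, from -0.162) and Myc (0.015 without mouse 2, from -0.262). The cause was not tested. At 3930207 to 7105999 reads, genes of a few CPM rest on few reads, and 3 mice limit the precision of the others.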
